A study of Mus musculus with 8 samples.

Results

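Genes for the handling of zinc, copper and iron were followed in RNA of the caput, the region where the epididymal duct receives sperm from the testis. The set comprised the zinc transporter families Slc30 and Slc39, the transporters Slc11a1, Slc11a2, Slc31a1 and Slc31a2, the metallothioneins Mt1 to Mt4, and Slc40a1, Tfrc, Trf, Fth1, Ftl1, Cp, Heph, Atp7a, Atp7b and Hamp. It was chosen by gene symbol and held 42 of the 24059 genes in the deposited table. Whole caput of Nell2-knockout (Nell2-KO) C57BL/6N mice was compared with that of wild-type (WT) mice of the same strain, all 14 weeks old, with 4 libraries per genotype. The labels name neither the knockout allele nor any cell type restriction of it. They number the replicates without saying that each is a separate animal, and p-values then reflect only variation among these libraries, which may be technical. Libraries were single reads of 36 bases from linearly amplified RNA. No question beyond the effect of the genotype is stated in the sources used here.

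Zinc enters the cytosol through ZIP proteins, encoded by the Slc39 genes, and leaves it for vesicles or the cell exterior through ZnT proteins, encoded by the Slc30 genes. Metallothioneins are small cysteine-rich proteins that bind zinc and copper, and their genes are switched on by the zinc-sensing factor MTF-1 through metal response elements. Copper is imported by CTR1 (Slc31a1) and pumped into the secretory pathway or out of the cell by ATP7A and ATP7B. Iron bound to transferrin (Trf) is taken up by the transferrin receptor (Tfrc), reduced in endosomes, moved into the cytosol by DMT1 (Slc11a2), stored in ferritin (Fth1 and Ftl1), and exported by ferroportin (Slc40a1) together with a copper-dependent ferroxidase such as ceruloplasmin (Cp) or hephaestin (Heph).

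Promoter windows are shown for Mt1 and Mt2, genes that did not differ detectably between genotypes, and for 3 called genes, Slc30a4, Atp7a and Tfrc. Each window holds the core of a metal response element. The called genes shown are those with at least 2 cores, except Slc30a2, of whose window 121 bases lie in its own annotated exons, as do 7 bases of the Mt1 window. The 5 windows are the 250 bases before the RefSeq start site on GRCm38.p6, written 5′ to 3′ on the gene's strand. Capitals mark the core, TGCACNC or TGCGCNC on either strand.
Mt1, chr8:94178839-94179088, plus strand: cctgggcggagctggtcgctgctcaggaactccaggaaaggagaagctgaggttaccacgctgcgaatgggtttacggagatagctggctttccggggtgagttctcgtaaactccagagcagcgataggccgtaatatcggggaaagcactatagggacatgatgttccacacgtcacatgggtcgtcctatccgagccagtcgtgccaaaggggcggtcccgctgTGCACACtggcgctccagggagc
Mt2, chr8:94172368-94172617, plus strand: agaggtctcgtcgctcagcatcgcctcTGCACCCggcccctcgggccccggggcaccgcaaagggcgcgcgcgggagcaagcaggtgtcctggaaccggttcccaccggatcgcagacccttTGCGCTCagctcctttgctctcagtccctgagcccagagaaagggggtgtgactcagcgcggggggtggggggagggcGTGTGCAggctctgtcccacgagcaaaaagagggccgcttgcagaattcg
Slc30a4, chr2:122702664-122702913, minus strand: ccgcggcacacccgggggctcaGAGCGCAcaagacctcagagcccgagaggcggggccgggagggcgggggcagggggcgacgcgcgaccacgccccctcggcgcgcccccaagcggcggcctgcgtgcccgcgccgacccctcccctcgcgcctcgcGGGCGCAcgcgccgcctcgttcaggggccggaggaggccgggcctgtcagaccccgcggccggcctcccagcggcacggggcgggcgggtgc
Atp7a, chrX:106026974-106027223, plus strand: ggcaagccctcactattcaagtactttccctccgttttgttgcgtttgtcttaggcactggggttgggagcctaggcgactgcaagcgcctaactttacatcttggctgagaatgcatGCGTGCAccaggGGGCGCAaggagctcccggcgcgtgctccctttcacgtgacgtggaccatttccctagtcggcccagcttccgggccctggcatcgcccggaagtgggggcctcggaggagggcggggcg
Tfrc, chr16:32608646-32608895, plus strand: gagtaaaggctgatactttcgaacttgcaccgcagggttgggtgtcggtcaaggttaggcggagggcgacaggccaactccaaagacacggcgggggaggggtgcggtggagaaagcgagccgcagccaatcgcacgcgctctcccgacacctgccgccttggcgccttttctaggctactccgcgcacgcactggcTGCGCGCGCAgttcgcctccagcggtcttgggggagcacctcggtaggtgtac
Within these windows Mt2 held 3 cores, Mt1 held 1, and Slc30a4, Atp7a and Tfrc held 2 each, those of Tfrc on opposite strands and overlapping. The counts depend on the start site used. Cores outside the 250 bases, for Mt1 as for the others, were not counted, so the genes are not ranked by them. Whether the windows, that of Mt1 above all, cover the known metal response elements of these genes was not checked. RefSeq promoters were found for 34 of the 42 genes, with 42 windows in all. A core was present in 18 of these windows (42.9%), against 21.4% of the 32851 windows in the table. By gene, it was present in 3 of 3 that rose in Nell2-KO, 3 of 5 that fell, 6 of 16 that did not pass the test and 5 of 10 not tested. A gene counts here if any of its windows holds a core. Slc39a8, among those that rose, has it before start site 2 only. The 21.4% is a share of windows, so these small counts by gene have no like background and were not tested. The letters CCGGAAGT, a site of ETS transcription factors, were present in 3 of the 42 windows (7.14%), those of Atp7a, Slc39a3 and Slc39a9, against 2.88% of all windows. In Atp7a they lie 33 to 26 bases before the start.

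Nell2 had 0 reads in each of the 4 Nell2-KO and 4 WT libraries and gave no check of the genotype labels. Counts summed to between 801112 and 6256204 in the Nell2-KO libraries and to between 2073811 and 2517387 in the WT libraries. Nell2-KO replicate 1 stood apart, with the lowest total and a share of its reads in genes that was 0.496 of the mean WT share. The other 3 Nell2-KO libraries were at 1.02 to 1.03 of it and the WT libraries at 0.900 to 1.04. These shares were inferred from the ratios of counts to RPKM, not from totals of mapped reads. For the genes of the set and the further list, values are therefore also given without Nell2-KO replicate 1 where that changes a call. Other libraries also differed within a genotype, by chi-square per degree of freedom between the counts of a pair, which grows with depth. WT replicate 2 was at 8.02 to 10.5 from the other WT libraries, which were at 1.29 to 2.09 from each other. Nell2-KO replicate 4 was at 14.6 from replicate 3 and 7.42 from replicate 2, and these last were at 2.12 from each other. Levels are CPM, read counts per library total scaled between libraries by TMM, unless RPKM is named. In RNA of a whole tissue, fewer cells of a type and less RNA per cell cannot be told apart.

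The WT caput carried transcripts for the import, storage and export of all 3 metals. Per length, the authors' deposited RPKM were highest for the ferritins, at 221 ± 35.5 RPKM for Fth1 and 96.8 ± 30.4 RPKM for Ftl1 (SD, n = 4 WT libraries here and below). Slc31a1 (68.9 ± 6.99 RPKM), Mt1 (66.0 ± 13.4 RPKM), Cp (43.4 ± 2.11 RPKM) and Mt2 (39 ± 3.70 RPKM) followed. The ranges of Ftl1, Slc31a1 and Mt1 overlapped, so that these 3 were not ordered beyond their spread. Slc30a9, at 31.2 ± 3.51 RPKM, led the ZnT genes, its range just meeting that of Slc30a5 (25.0 ± 1.95 RPKM), and Slc39a7, which encodes a ZIP protein of the endoplasmic reticulum, had the highest mean of the ZIP genes at 29.2 ± 5.25 RPKM, though it shares 2084 exon bases with the same-strand gene model Gm20427, whose reads cannot be told from its own. The iron exporter gene Slc40a1 was at 1.68 ± 0.426 RPKM, close to the ferroxidase gene Heph at 1.54 ± 0.181 RPKM and far below Cp.

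**Figure D1:**
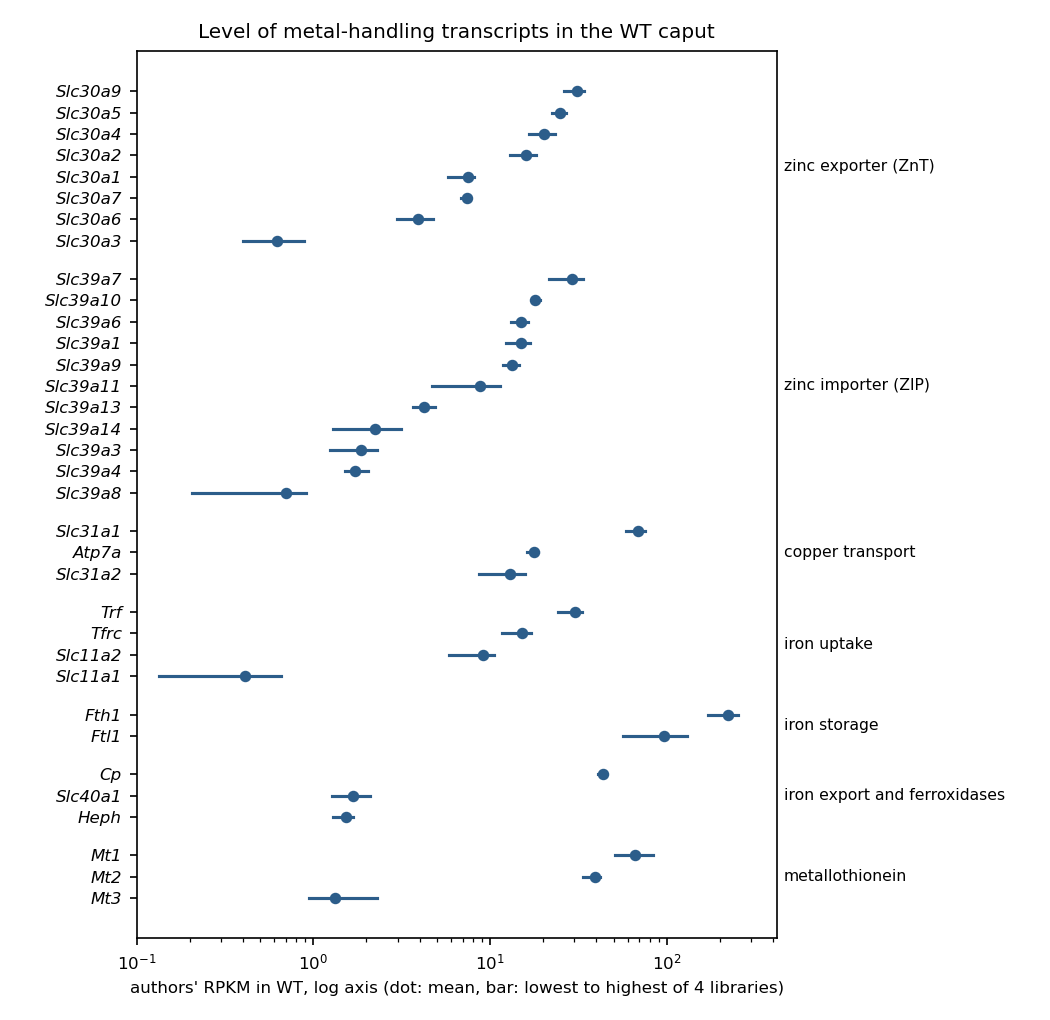
Authors' RPKM in the 4 WT libraries for the 34 metal-handling genes with a mean of at least 0.1 RPKM, grouped by role, on a log axis; dots are means and bars run from the lowest to the highest library. Fth1 lies highest at a mean of 221 RPKM and Slc11a1 lowest of those drawn at 0.413 RPKM.

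Of the 42 genes, 31 passed the filter on low counts and were tested, and 11 were not. Among the 11, Slc30a8 and Mt4 had 0 reads in all libraries, which allows up to 0.211 CPM over the pooled Nell2-KO libraries and 0.339 CPM over the pooled WT libraries, counting error only. Atp7b, Slc30a10, Slc39a2, Slc39a5, Slc39a12 and the iron hormone gene Hamp had between 0 and 3 reads in the pooled Nell2-KO libraries and 0 or 1 in the pooled WT libraries. Mt3, Slc30a3 and the phagosomal transporter gene Slc11a1 were low, with 31, 50 and 14 reads in Nell2-KO and 10, 18 and 14 reads in WT.

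Of the 31 tested genes, 3 rose and 6 fell in Nell2-KO (edgeR quasi-likelihood test, adjusted p under 0.05 over all 11062 genes tested). The 9 called are 29% of the 31, against a background of 15% of all genes tested. The share that rose was 9.68%, against 6.24% of all genes, and the share that fell was 19.4%, against 8.71% of all genes. Slc31a2, Slc30a2 and Slc39a8 rose, and Trf, Atp7a, Tfrc, Slc39a13, Cp and Slc30a4 fell. The median log2 fold change was -0.08 over the 31 genes and 0.03 over all genes tested. Nell2-KO and WT libraries did not overlap for 11 of the 31, nor for 22.1% of all genes tested. The number called was 5 of the 31 without Nell2-KO replicate 3 or 4 or without WT replicate 3 or 4. The background also fell in these 4 settings. Over all genes, 1276 of 11179 were called without Nell2-KO replicate 3 and 1413 of 11171 without Nell2-KO replicate 4. Without WT replicate 3 the number was 1204 of 11281, and without WT replicate 4 it was 1300 of 11199. Without Nell2-KO replicate 1, 12 of the 31 were called, 4 higher and 8 lower, against a background of 24.7% of all genes, 11.1% higher and 13.7% lower.

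**Figure D2:**
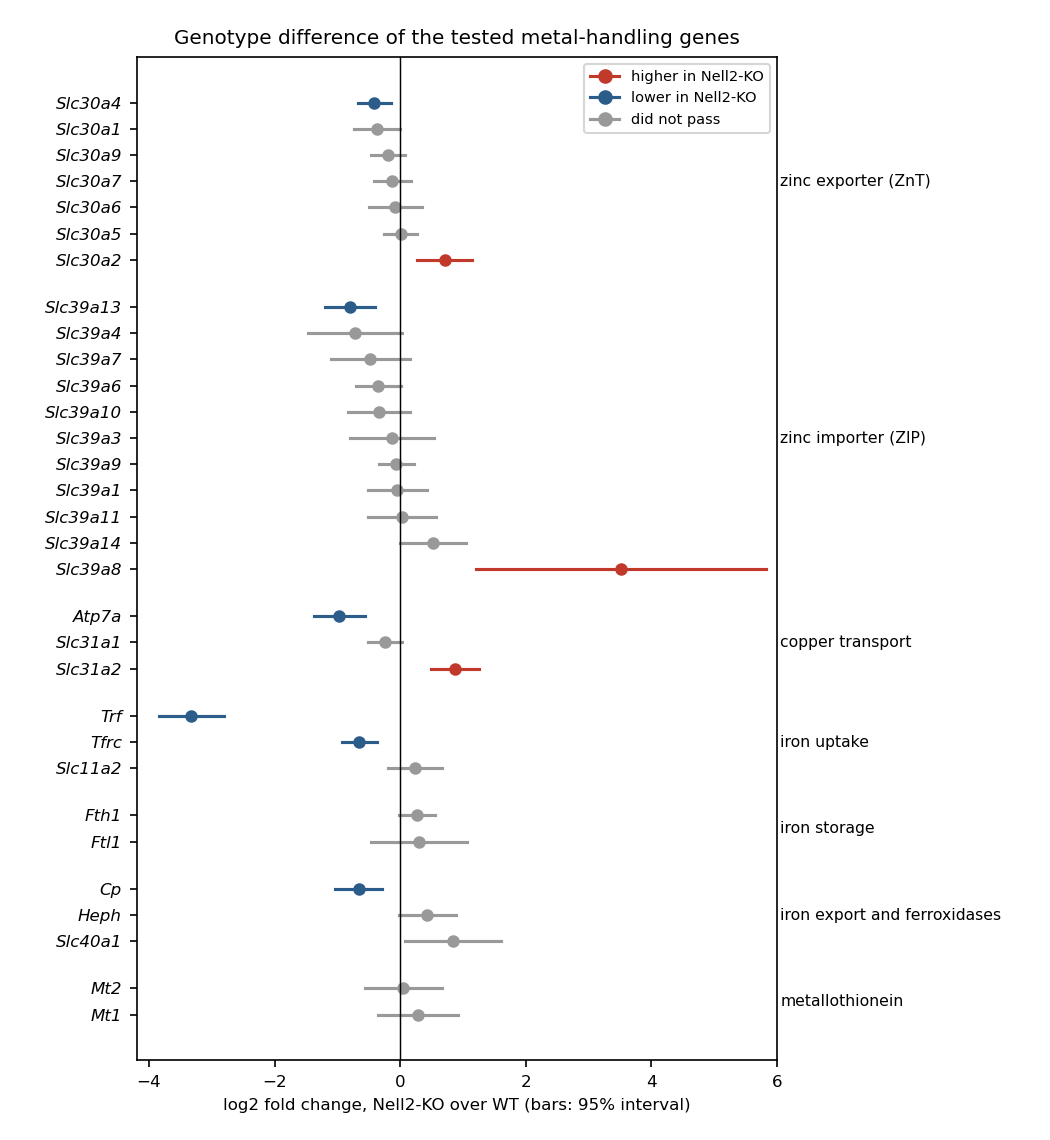
Log2 fold change of the 31 tested genes, Nell2-KO over WT, by role; dots are edgeR estimates and bars 95% intervals not adjusted for the number of genes, coloured by whether the gene passed the test. Trf lies at -3.32 with an interval of -3.84 to -2.81, while the interval of Slc39a8 runs from 1.21 to 5.83.

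Among the iron uptake genes, Trf and Tfrc fell, and Trf fell most of the 31 genes tested. Trf, the gene of the secreted iron carrier transferrin, was at 4.22, 17.5, 12.5 and 9.17 CPM in Nell2-KO replicates 1 to 4, against 117, 104, 113 and 121 CPM in WT replicates 1 to 4. Every Nell2-KO library was far below every WT library. The fitted log2 fold change was -3.32 ± 0.24 (SE), a 10.02-fold fall (edgeR adjusted p = 1.2e-06), and Trf was called under all 20 alternatives tried. Trf occupies chr9:103204001-103230444 (mm10, minus strand) and shares 2108 exon bases with the same-strand gene model Gm20425, so that its reads cannot be told from those of that model.

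Tfrc, the receptor that takes up loaded transferrin, fell less. It was at 77.4, 80.7, 71.7 and 75.2 CPM in Nell2-KO, against 130.0, 105, 118 and 125 CPM in WT. The groups did not overlap, and the Nell2-KO libraries lay close together. The fall was 1.57-fold (log2 fold change -0.65 ± 0.13 SE, edgeR adjusted p = 0.0043). The call held without any single library. Slc11a2, the endosomal iron transporter, was at 60.6, 99.6, 107 and 111 CPM in Nell2-KO and 91.3, 60.2, 88.0 and 88.5 CPM in WT. It did not pass the test, with a log2 fold change of 0.24 and a 95% interval of -0.19 to 0.67, and 402 of its exon bases are shared with the opposite-strand gene Gm5475. When Nell2-KO replicate 1, its lowest Nell2-KO library, was dropped, the estimate was 0.37 and the edgeR adjusted p 0.04996, just under the threshold.

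Neither ferritin gene passed the test with all libraries. Fth1, the ferroxidase-active heavy chain, was at 686, 647, 628 and 626 CPM in Nell2-KO, against 592, 471, 534 and 553 CPM in WT. All Nell2-KO values lay above all WT values, and the 1.20-fold difference (95% interval of the log2 fold change -0.02 to 0.55) gave an edgeR adjusted p of 0.22. Ftl1, the light chain, was at 53.5, 179.6, 236 and 250.1 CPM in Nell2-KO and 195, 99.8, 159 and 147 CPM in WT. Its groups overlapped, and Nell2-KO replicate 1 was the lowest of all 8 libraries. The log2 fold change was 0.30, with a 95% interval of -0.47 to 1.07 (edgeR adjusted p = 0.65). Ftl1 was called in 1 of 20 alternatives. That was without Nell2-KO replicate 1 and WT replicate 2 together, where its log2 fold change was 0.43 (edgeR adjusted p = 0.039). Both ferritin genes have annotated pseudogenes, and reads that fit several copies may have been divided in a way the sources used here do not give.

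Of the genes for iron export, Cp fell and the others did not pass the test. Ceruloplasmin, the secreted copper-carrying ferroxidase encoded by Cp, was at 379, 271, 230.3 and 249.6 CPM in Nell2-KO, against 394, 507, 451 and 419.6 CPM in WT. Nell2-KO replicate 1 lay just under the lowest WT library and the other 3 well below. The fall was 1.58-fold (log2 fold change -0.66 ± 0.17 SE, edgeR adjusted p = 0.022). The call ended without Nell2-KO replicate 2, 3 or 4 or WT replicate 2, 3 or 4, the highest edgeR adjusted p being 0.0808 in the absence of Nell2-KO replicate 3. Dropping Nell2-KO replicate 1 gave 2.7e-05 by edgeR. Cp shares 108 exon bases with the opposite-strand gene Hps3, and whether the counts kept strand is not stated in those sources.

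Slc40a1, the only known iron exporter of mammalian cells, was at 11.3, 32.7, 13.1 and 12.2 CPM in Nell2-KO and 6.66, 8.32, 11.2 and 10.5 CPM in WT. The groups did not overlap but nearly met, and Nell2-KO replicate 2 was far above the rest. Its log2 fold change of 0.84 had an unadjusted 95% interval of 0.07 to 1.61 and an edgeR adjusted p of 0.15. Macrophages recycle iron through ferroportin, and the summed CPM of the 8 macrophage markers measured lay lower in Nell2-KO (103 to 142) than in WT (148 to 186), with 1 of the 7 tested, Lyz2, called lower. Their part in its level was not tested. Heph, the membrane-bound ferroxidase, averaged 21.3 ± 5.59 CPM in Nell2-KO and 14.9 ± 2.56 CPM in WT (SD, n = 4 each; edgeR adjusted p = 0.21).

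Of the 3 copper transport genes tested, Atp7a fell, Slc31a2 rose and Slc31a1 did not pass. Atp7a, the copper pump of the Golgi and plasma membrane, was at 173, 106, 98.5 and 111 CPM in Nell2-KO, against 205, 275, 224 and 239 CPM in WT. The groups did not overlap, and Nell2-KO replicate 1 was the nearest to WT. The fall was 1.96-fold (log2 fold change -0.97 ± 0.19 SE, edgeR adjusted p = 0.0036) and was called under all 20 alternatives. Dropping Nell2-KO replicate 1 moved it to -1.16. Atp7a occupies chrX:106027276-106124926 (mm10, plus strand). Its relative Atp7b had 3 reads in Nell2-KO and 1 in WT.

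Slc31a2, which encodes the CTR1-related protein CTR2 of endosomes and lysosomes, was at 85.9, 64.0, 68.4 and 81.3 CPM in Nell2-KO, against 47.4, 30.8, 36.9 and 47.0 CPM in WT. Every Nell2-KO library lay above every WT library. The rise was 1.83-fold (log2 fold change 0.87 ± 0.18 SE, edgeR adjusted p = 0.0050), and the call held without any single library. Slc31a1, also on chromosome 4 and the importer at the plasma membrane, was at 321, 350.5, 348 and 384 CPM in Nell2-KO and 409, 402, 421 and 436 CPM in WT. The groups did not overlap, but the log2 fold change of -0.25 (95% interval -0.52 to 0.02) did not pass the test (edgeR adjusted p = 0.23). Slc31a1 was called lower in 2 of 20 alternatives, limma voom and the loss of both Nell2-KO replicate 1 and WT replicate 2. The ratio of Slc31a2 to Slc31a1 reads, which needs no scaling between libraries, averaged 0.215 ± 0.0372 in Nell2-KO and 0.0970 ± 0.0180 in WT (SD, n = 4 each). This ratio rests on the same counts as the call of Slc31a2 and adds no further support to it.

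**Figure D3:**
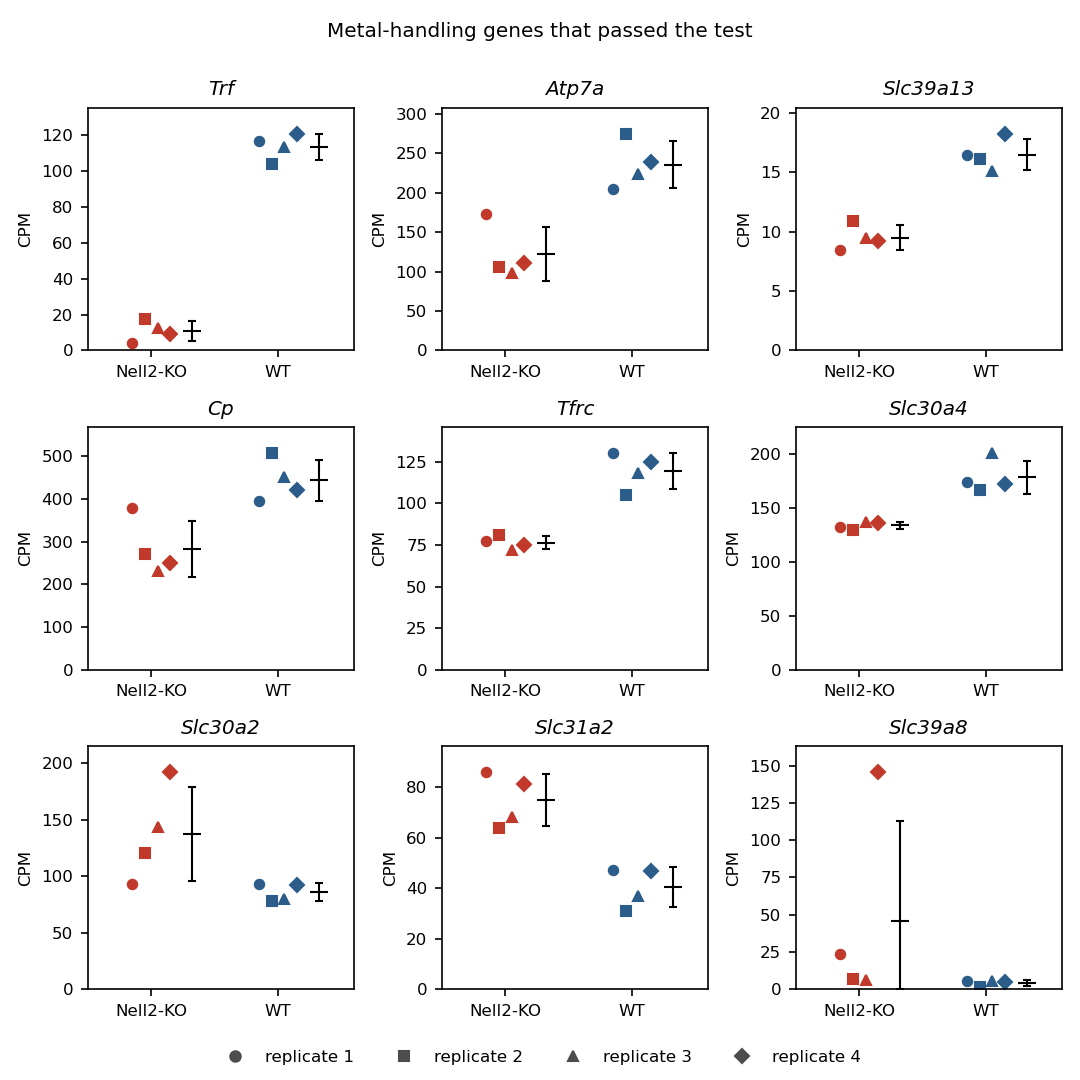
CPM in each library for the 9 genes that passed the test, Nell2-KO left and WT right, with replicates 1 to 4 as circle, square, triangle and diamond; the horizontal tick and bar beside each group are the mean and SD (n = 4), the bar of Slc39a8 being cut at 0. The Nell2-KO values of Trf (4.22 to 17.5 CPM) lie below all WT values, and Slc39a8 reaches 145 CPM in Nell2-KO replicate 4.

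Among the 7 ZnT genes tested, 1 rose, 1 fell and 5 did not pass. Slc30a2, which encodes the vesicular exporter ZnT2 that loads zinc into milk, was at 92.9, 121, 144 and 192 CPM in Nell2-KO, against 93.2, 78.3, 79.7 and 92.1 CPM in WT. Nell2-KO replicate 1 lay within the WT range and the other 3 above it. The rise was 1.63-fold (log2 fold change 0.71 ± 0.20 SE, edgeR adjusted p = 0.031). The call ended without Nell2-KO replicate 3 or 4 or without any WT library (highest edgeR adjusted p = 0.105, lacking WT replicate 3), and the log2 fold change was 0.50 without Nell2-KO replicate 4. Dropping Nell2-KO replicate 1 gave an edgeR adjusted p of 0.00032.

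Slc30a4, the gene of ZnT4 whose loss causes the lethal milk trait in mice, was at 132, 130.2, 137 and 137 CPM in Nell2-KO, against 175, 167, 201 and 172 CPM in WT. The groups did not overlap, and the Nell2-KO libraries were nearly equal. The fall was 1.33-fold (log2 fold change -0.41 ± 0.12 SE, edgeR adjusted p = 0.039). The call ended without Nell2-KO replicate 2, 3 or 4 or WT replicate 1, 3 or 4 (highest edgeR adjusted p = 0.158, lacking WT replicate 3). Slc30a4 also shares 130 exon bases with an opposite-strand transcript. The ratio of Slc30a2 to Slc30a4 reads was 0.702, 0.927, 1.05 and 1.41 in Nell2-KO, against 0.534, 0.469, 0.396 and 0.534 in WT, without overlap. Both genes were called, in opposite directions, from the same counts, so this separation adds no support to either call.

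Slc30a1, the zinc exporter of the plasma membrane and a target of MTF-1, averaged 49.7 ± 3.52 CPM in Nell2-KO and 63.9 ± 12.4 CPM in WT (SD, n = 4 each) and did not pass the test (edgeR adjusted p = 0.17). The log2 fold changes of Slc30a5, Slc30a6, Slc30a7 and Slc30a9, exporters of the secretory pathway and, for Slc30a9, of mitochondria, ran from -0.19 to 0.0074. Of these, Slc30a5 had the narrowest interval, -0.25 to 0.27 on the log2 scale.

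Among the 11 ZIP genes tested, 1 rose, 1 fell and 9 did not pass. Slc39a13, which encodes ZIP13 of intracellular membranes, was at 8.45, 10.9, 9.44 and 9.17 CPM in Nell2-KO, against 16.4, 16.1, 15.1 and 18.2 CPM in WT. The groups did not overlap. The fall was 1.73-fold (log2 fold change -0.79 ± 0.18 SE, edgeR adjusted p = 0.011), and its call ended without Nell2-KO replicate 3 (edgeR adjusted p = 0.0546). Slc39a13 shares 215 exon bases with the opposite-strand proteasome gene Psmc3.

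Slc39a8, the gene of ZIP8 and in mice a determinant of testicular damage by cadmium, was at 23.9, 6.55, 6.25 and 145 CPM in Nell2-KO, against 5.48, 1.47, 5.35 and 5.02 CPM in WT. Nell2-KO replicate 4 carried most of the difference, and replicates 2 and 3 lay just above the WT values. The fitted difference of 3.52 ± 1.05 on the log2 scale (SE, edgeR adjusted p = 0.045) was 1.06 without Nell2-KO replicate 4 (edgeR adjusted p = 0.254). The call also ended without Nell2-KO replicate 1 (log2 fold change 3.71, edgeR adjusted p = 0.17) or without any WT library. Slc39a8 was called in 7 of 20 alternatives.

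Of the other ZIP genes, Slc39a10, a plasma membrane importer, was at 193, 85.8, 96.3 and 98.5 CPM in Nell2-KO and 133, 162, 151 and 134 CPM in WT. Nell2-KO replicate 1 was the highest of all 8 libraries, and the other 3 lay below WT. Without it, Slc39a10 fell by 0.62 on the log2 scale (edgeR adjusted p = 0.00047), as did Slc39a6 by 0.47 (edgeR adjusted p = 0.0077), while Slc39a14, which also carries iron and manganese, rose by 0.61 (edgeR adjusted p = 0.032). With all libraries the log2 fold changes of these 3 were -0.34, -0.35 and 0.53, and none passed. Slc39a4, known as the zinc importer of the intestine, was at 2.82, 8, 3.66 and 2.52 CPM in Nell2-KO and 7.05, 6.36, 5.35 and 5.93 CPM in WT. It was called lower without Nell2-KO replicate 2 (edgeR adjusted p = 0.046). Slc39a1, Slc39a3, Slc39a7, Slc39a9 and Slc39a11 had log2 fold changes from -0.48 to 0.03 and did not pass the test with all libraries or without any single one.

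Metallothionein transcripts did not differ detectably. Mt1 was at 114, 40, 55.9 and 84.5 CPM in Nell2-KO and 57.2, 82.2, 43.7 and 52.0 CPM in WT. Mt2 was at 21.1, 25.5, 29.7 and 59.7 CPM in Nell2-KO and 33.7, 42.6, 29.6 and 35.6 CPM in WT. The groups overlapped in both genes. The log2 fold change was 0.29 for Mt1 (95% interval -0.35 to 0.92, edgeR adjusted p = 0.59) and 0.05 for Mt2 (95% interval -0.56 to 0.66, edgeR adjusted p = 0.94). Mt1 and Mt2 are close in sequence, and short reads that fit both are uncertain. Mt2 also shares 432 exon bases with an antisense gene model.

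**Figure D4:**
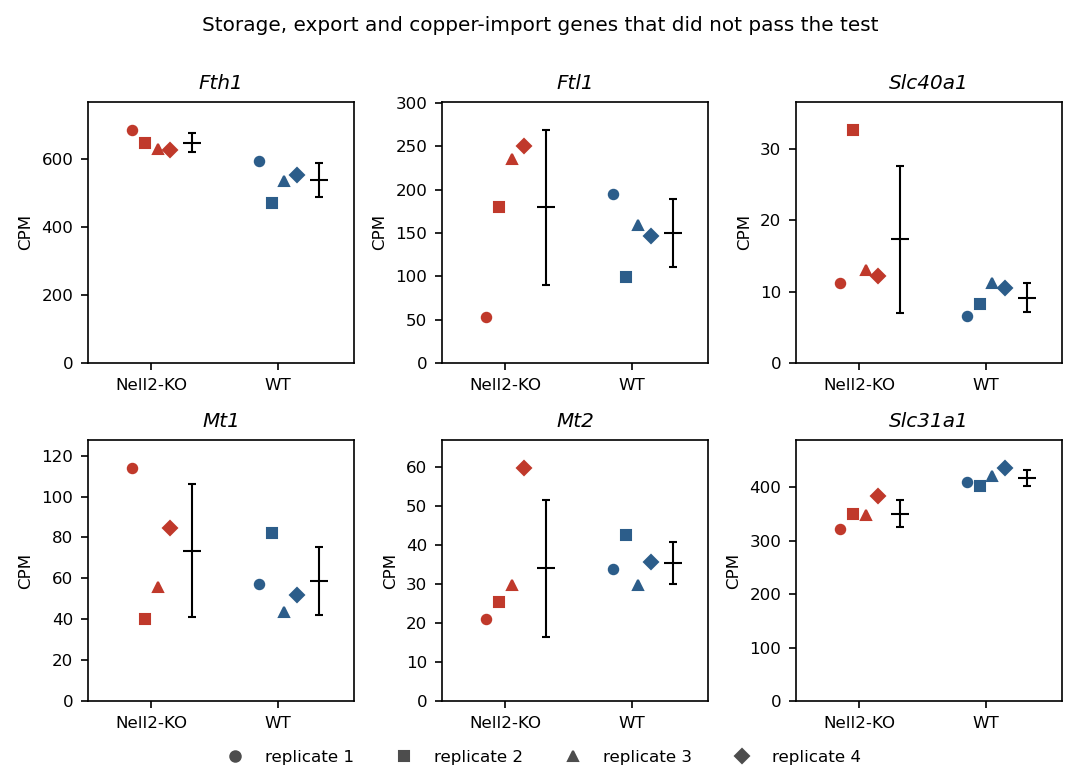
CPM in each library for 6 genes that did not pass the test, Nell2-KO left and WT right, with symbols, means and SD (n = 4) as in the plot of the called genes. Fth1 lies at 626 to 686 CPM in Nell2-KO against 471 to 592 CPM in WT and Slc31a1 at 321 to 384 CPM in Nell2-KO against 402 to 436 CPM in WT, without overlap, while Mt1, Mt2 and Ftl1 overlap between genotypes.

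A list of 49 further genes of metal handling was examined, of which 32 were tested, 1 rose and 3 fell. These are 3.12% and 9.38% of the 32, against the same background of 6.24% higher and 8.71% lower, and their median log2 fold change was -0.05. Lcn2, which encodes a siderophore-binding lipocalin that carries iron, was at 809.7, 957, 923 and 1103 CPM in Nell2-KO, against 3573, 3545, 3579.6 and 3098 CPM in WT. No library of one genotype came near the other, and the fall was 3.63-fold (edgeR adjusted p = 5e-06). Abcg2, a membrane exporter of porphyrins and haem among other substrates, fell 2.72-fold to 13.4 ± 2.95 CPM in Nell2-KO, against 39.1 ± 4.17 CPM in WT (SD, n = 4 each; edgeR adjusted p = 0.00015). Hmox2, the constitutive haem oxygenase, fell 1.95-fold to 21.9 ± 5.33 CPM in Nell2-KO, against 44.1 ± 1.70 CPM in WT (edgeR adjusted p = 0.0032). Alas1, the enzyme that starts haem synthesis, rose 1.44-fold to 45.9 ± 4.29 CPM in Nell2-KO, against 31.5 ± 3.82 CPM in WT (edgeR adjusted p = 0.036). The call of Alas1 was lost when Nell2-KO replicate 2, 3 or 4 or WT replicate 1, 3 or 4 was dropped (highest edgeR adjusted p = 0.116), whereas those of Lcn2, Abcg2 and Hmox2 held without any single library.

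The sensors of the pathways, singled out after their values were seen, did not pass the test with all libraries. Aco1 and Ireb2, which encode the iron regulatory proteins that bind Tfrc and ferritin mRNA, averaged 163 ± 16.5 and 241 ± 23.4 CPM in Nell2-KO and 209 ± 12.9 and 206 ± 6.92 CPM in WT (SD, n = 4 each). Without Nell2-KO replicate 1, Aco1 fell by 0.31 on the log2 scale (edgeR adjusted p = 0.034). Mtf1, the zinc sensor, averaged 20.6 ± 1.44 CPM in Nell2-KO and 26.3 ± 3.70 CPM in WT. Of the 10 copper chaperones and copper enzymes tested, 0 were called by edgeR, against 15% of all genes tested, a share that so few genes could miss. The mitochondrial copper chaperone gene Cox17 was the 1 with an unadjusted p under 0.05 (edgeR adjusted p = 0.17).

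Markers of other cell types were measured beside these genes. Summed CPM of the 4 endothelial markers lay at 33.3 to 48.0 in Nell2-KO and 68.4 to 89.3 in WT, of the 4 fibroblast markers at 565 to 811 in Nell2-KO and 904 to 990.4 in WT, and of the 3 basal cell markers at 127 to 218 in Nell2-KO and 220.1 to 258 in WT. These sums did not overlap between genotypes, but their members did not move together. Among the fibroblast markers, Pdgfra fell to 121 ± 23.8 CPM in Nell2-KO, against 517 ± 42.5 CPM in WT, Dcn rose to 401 ± 79.2 CPM in Nell2-KO, against 275 ± 22.8 CPM in WT, and Col1a1 and Col1a2 did not pass (SD, n = 4 each). Of the basal cell markers Trp63 fell and Krt5 and Krt14 did not pass, and of the endothelial markers Pecam1 and Kdr fell and Cdh5 and Tek did not pass. Of the 7 macrophage markers tested, 1, Lyz2, fell and 6 did not pass. The part of these cell types in the genes that fell was not tested. The 7 erythrocyte markers summed to 0 to 2.59 CPM in Nell2-KO and 0 to 3.43 CPM in WT, with Hba-a1, Hbb-bt and Slc4a1 at 0 reads in all libraries. Globin genes are close in sequence, and how short reads that fit several of them were treated is not given. These sums therefore do not show that blood RNA was absent. The 7 markers of the caput epithelium summed to 100686 to 123360 CPM in Nell2-KO and 106403 to 114033 CPM in WT, and 1 of them rose and 4 fell. Gpx5, which did not pass, made up most of the sums (means 83557.5 CPM in Nell2-KO and 69399.7 CPM in WT). Mean CPM in Nell2-KO against WT fell for Lcn8 (5.56 against 5876), Cst11 (89.2 against 4248), Crisp1 (105 against 1198) and Adam7 (18017.5 against 26979.8). Lcn5 rose (4893 against 1325), a call lost without Nell2-KO replicate 1, and Rnase9 did not pass. Smooth muscle, germ cell and adipocyte marker sums overlapped between genotypes, and none of their members was called. Clear cell marker sums also overlapped, at 287 to 503 CPM in Nell2-KO and 286 to 338 CPM in WT, with Atp6v0d2 at 397 CPM in Nell2-KO replicate 1. Foxi1 of that list rose to 152 ± 39 CPM in Nell2-KO, against 84.0 ± 10.6 CPM in WT (SD, n = 4 each, edgeR adjusted p = 0.0070). Without Nell2-KO replicate 1, Atp6v1b1 was also called higher (edgeR adjusted p = 0.020) and Atp6v0d2 lower (edgeR adjusted p = 0.012).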

How the data were processed

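The 8 libraries were made from whole caput epididymis, amplified and prepared with a stranded kit, per the labels' protocols. The submitters' processing notes name Bowtie2 2.2.0, CASAVA 1.8.2 and FastQC 0.11.2, and the build mm10. How reads were counted, whether by strand and how reads matching several genes were treated, is not given in the sources used. The deposited counts are raw reads for each gene symbol, per the file headers. The submitters also deposited RPKM, per the file headers, which do not give the total used. The ratios of counts to RPKM imply a total that is not proportional to the sum of the gene counts.

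The counts of 24059 genes were tested with edgeR 4.0.16 (R 4.3.3): TMM scaling, filterByExpr, which kept 11062 genes, robust quasi-likelihood fits of Nell2-KO against WT with 4 libraries each, and Benjamini-Hochberg adjustment over all genes kept. A call is an adjusted p under 0.05, and intervals are 95% and not adjusted. RPKM were used for levels between genes in WT and, with limma 3.58.1 and pseudocounts of 1 and 0.1, as alternatives. DESeq2 1.42.0, limma voom, other scalings and filters, a replicate block and the loss of each library were the other alternatives. In simulated data for this comparison (11062 genes, of which the filter kept 10877), edgeR recovered 71 of 100 genes changed by 1 on the log2 scale and 93 of 100 changed by 2, with 3 false calls among the 10684 unchanged genes kept. The simulated libraries were independent draws, with no library standing apart and no batch, so these rates need not hold for the real libraries.

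The genes, the further list of metal handling genes, the cell type markers, the promoter motifs and the choice of printed promoters were chosen with earlier results of these data known. Every gene of the set is accounted for. Genes given library by library are those called, the metallothioneins, the ferritins, the copper and iron transporters fixed by name and the 4 with the highest RPKM, with a few added after their values were seen. Depth ranged from 801112 to 6256204 counts, and floors for a count of 0 rest on 3 counts. Gene positions and exon overlaps are from GENCODE on mm10, and promoters from RefSeq on GRCm38.p6, which has the same chromosomes.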

Additional observations from a re-analysis of the deposited data

Results flagged for a closer look

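Of 62 groups of 4 libraries examined, 2 for each of the 31 tested genes, 7 held 1 library far from the other 3 by Dixon's test, which chance does in about 1 group in 20. Slc39a8 did so in both genotypes, with Nell2-KO replicate 4 at 145 CPM and the remaining Nell2-KO libraries at 6.25 to 23.9 CPM, and with WT replicate 2 at 1.47 CPM and the remaining WT libraries at 5.02 to 5.48 CPM. Nell2-KO replicate 1, the library with the lowest total, stood apart for Atp7a (173 CPM against 98.5 to 111 CPM), Slc39a10 (193 CPM against 85.8 to 98.5 CPM) and Slc39a11 (19.7 CPM against 42.0 to 44.4 CPM). For Slc40a1, Nell2-KO replicate 2 was at 32.7 CPM and its group otherwise at 11.3 to 13.1 CPM. For Slc11a2, WT replicate 2 was at 60.2 CPM and its group otherwise at 88.0 to 91.3 CPM.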

How the results depend on the processing

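Trf and Atp7a were called under all 20 alternatives, and Tfrc and Slc31a2 under 18, being lost on the unscaled RPKM, which moved the median log2 fold change of all genes to -0.157 (pseudocount 1) and -0.219 (pseudocount 0.1). Of the 31 tested genes, 9 were called. The count was 3 and 2 on unscaled RPKM, 14 without Nell2-KO replicate 1 and WT replicate 2 together, and 5 to 12 without single libraries. Over all genes, 1654 calls became 3460 with limma voom, 585 and 484 on unscaled RPKM, 3085 without those 2 libraries, and 1204 to 2790 without single libraries. Of the further list, 4 became 8 with voom and 2 on both unscaled RPKM fits, and 3 to 5 without single libraries. The cause was not tested.

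With the replicate number as a block, 5 of the 31 tested genes were called (2 higher, 3 lower), and 1184 of all 11062 genes tested. Slc39a13, Cp, Slc30a2 and Slc30a4 were lost. Same-numbered libraries correlated at -0.28, -0.17, 0.17 and 0.17, and no Nell2-KO library correlated best with its own number. The highest correlation, 0.42, was between Nell2-KO replicate 1 and WT replicate 2. Libraries that stand apart can mask a shared batch in such values, so a pairing by number was neither shown nor excluded.

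Uncalled genes changed sign. On unscaled RPKM (pseudocounts 1 and 0.1) the log2 fold changes were -0.13 and -0.14 for Ftl1, -0.37 and -0.39 for Mt2, -0.0046 and -0.032 for Slc11a2, -0.20 and -0.21 for Slc30a5, and -0.21 and -0.28 for Slc39a11. On rescaled RPKM they were -0.16 for Mt2 and -0.055 for Slc39a11, and with the block -0.082 and -0.0024. With voom they were -0.059 for Slc30a5 and 0.11 for Slc39a1, and with no filter -0.0090 for Slc30a5. Without Nell2-KO replicate 1 and WT replicate 2 they were -0.037 for Slc30a5, 0.082 for Slc39a1 and -0.010 for Slc39a11. Without single libraries they ran from -0.41 to 0.18 for Mt2, -0.035 to 0.059 for Slc30a5, -0.14 to 0.011 for Slc30a6, -0.17 to 0.11 for Slc39a1 and -0.14 to 0.16 for Slc39a11. Depth limits the low genes most: 3 reads are worth 4.22 CPM in Nell2-KO replicate 1 and 0.457 CPM in Nell2-KO replicate 3.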

Other observations

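Hmox1, the inducible haem oxygenase, was noticed after its values were seen. It was at 46.5, 58.9, 7.31 and 5.21 CPM in Nell2-KO replicates 1 to 4, against 5.48, 5.38, 4.37 and 5.93 CPM in WT replicates 1 to 4. The first 2 Nell2-KO libraries were high and the others within or near the WT range, and the gene did not pass the test (log2 fold change 2.08, edgeR adjusted p = 0.13). The ratio of Mt1 to Mt2 reads was 5.40 in Nell2-KO replicate 1, against 1.42 to 1.88 in the other Nell2-KO libraries and 1.46 to 1.93 in WT.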
